A study of Mus musculus with 8 samples.

Results

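The 10 genes described here encode cytokines of the interleukin-6 (IL-6) family, the receptor chains that bind them and 2 inhibitors that their signalling induces. They were chosen by name, *Il6*, *Il11*, *Lif*, *Osm*, *Osmr*, *Il6ra*, *Il6st*, *Lifr*, *Socs3* and *Cish*, from the 54532 genes of the deposited expression table, and all 10 were present as 1 row each. The cells were MICFs, cardiac fibroblasts isolated from adult C57BL/6 mice after myocardial infarction (MI), which were infected with lentiviruses for doxycycline-inducible *Mef2c*, *Gata4* and *Tbx5* on 1 construct (MGT), *Myocd*, *Sall4* and eGFP. Every group carried all of these factors (labelled MGTMyoS overexpression), so no library came from cells without them. One portion of the infected cells was injected into the left ventricle of mice with surgically induced MI (*in vivo*) and another was kept in culture (*in vitro*), both under doxycycline, and eGFP+ cells were sorted by flow cytometry on Days 7 and 14, called 1 week and 2 weeks here. Each of the 4 groups had 2 libraries. Which animals or wells made up a library is not given in the sources used here, so the p-values measure the spread between these libraries, which may be technical.

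By the study's methods, the drugs differed along with the condition. The reprogramming medium described there holds baricitinib, an inhibitor of the Janus kinases JAK1 and JAK2, and SB431542, an inhibitor of TGF-β receptors, whereas the host mice received tacrolimus, methylprednisolone (a glucocorticoid) and mycophenolate mofetil each day. The sample labels do not name the medium, so its use for these cultured libraries is read from the methods alone. Transplanted cells were also released from the heart by digestion before sorting. For every gene described, the effects of the heart, of the medium, of the immunosuppressants and of the cell isolation cannot be told apart. In sorted bulk samples, fewer cells of a type and less RNA per cell also cannot be told apart.

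IL-6 family cytokines signal through receptor complexes that share gp130, the product of *Il6st*. A second chain gives each cytokine its target: IL-6 uses the IL-6 receptor α chain (*Il6ra*), leukaemia inhibitory factor (*Lif*) uses *Lifr*, and oncostatin M (*Osm*) in the mouse acts mainly through *Osmr*. Binding activates Janus kinases, which phosphorylate STAT3 and other STAT proteins, and STAT3 induces *Socs3*, whose product binds gp130 and its kinases and shuts the signal down. *Cish* encodes a related inhibitor that is a classical target of STAT5, downstream of receptors such as those for erythropoietin and growth hormone. In the infarcted heart these cytokines are known to come from fibroblasts, macrophages and other cells, and oncostatin M in particular is produced by myeloid cells.

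The libraries held 12304242 to 14546904 fragments on genes (median 12919718). Levels are given as FPKM, fragments scaled by gene length and library size, with a scaling between libraries that the deposited values already include. A comparison of different genes therefore rests on the gene lengths used. For *Cish* the length was 6419 bases, in a locus that runs from 107296026 to 107302784, and for *Socs3* it was 2891 bases. Each mean is given with its SD over 2 libraries. A gene was called changed where limma on log2(FPKM + 0.1) gave a Benjamini-Hochberg adjusted p under 0.01 over the 15708 genes tested and the fold change exceeded 2, and fold changes are on this scale, which understates them for low genes. All 10 genes passed the filter for testing. The sorted cells held the fibroblast marker *Pdgfra* at 19.8 to 27.8 FPKM in all 8 libraries, and the summed level of 10 fibroblast markers was 2329 to 3775 FPKM *in vitro* and 10904 to 14759 FPKM *in vivo*. They also held macrophage RNA. The 14 macrophage markers summed to 4893 to 6020 FPKM *in vitro*, 2726 to 3136 FPKM *in vivo* at 1 week and 1969 to 2370 FPKM *in vivo* at 2 weeks. None of their defining markers was at 0. *Lyz2* weighed most in these sums, at 3574 and 4014 FPKM *in vitro* and 1453 and 1331 FPKM *in vivo* at 1 week. The defining marker *Ptprc* overlapped at 1 week, at 5.18 and 6.84 FPKM *in vitro* and 7.26 and 6.07 FPKM *in vivo*. Of 7 neutrophil markers *Ly6g* was listed at 0 in all 8 libraries, but others were not. The 7 summed to 2.92 to 4.07 FPKM *in vitro* and 9.11 to 9.42 FPKM *in vivo* at 1 week. At 2 weeks the sums were 2.73 to 3.58 and 3.36 to 10.1 FPKM. *S100a9* was at 0 in culture, at 0.654 and 1.76 FPKM *in vivo* at 1 week and at 3.39 and 0.347 FPKM at 2 weeks. The 10 lymphocyte markers summed to at most 3.81 FPKM.

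The 2 inhibitor genes differ in the letters near their start sites, and the stretches are shown because *Socs3* stood highest and *Cish* lowest in the transplanted cells at 2 weeks. The search was for TTCNNNGAA, the spaced palindrome that STAT dimers are known to bind, within windows of 300 bases (250 before to 50 after each RefSeq start site, GRCm38.p6), and it reads the same on both strands. Of 32851 such windows, 8.30% held at least 1 match. The *Socs3* match began 154 bases before the start site, outside annotated exons (chr11:117969502-117969530, minus strand). The *Cish* window held 2 matches, beginning at bases 1 and 12 counted from the RefSeq start site, both within an exon of a longer annotated transcript (chr9:107296654-107296683, plus strand). The first of them also fits TTCCNGGAA, present in 1.15% of windows. Matched letters are in capitals.
Socs3: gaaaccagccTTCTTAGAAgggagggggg
Cish: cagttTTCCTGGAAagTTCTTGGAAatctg

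A second set of letters, TGANTCA, the palindrome known for AP-1 factors such as Fos and Jun, was searched because *Fos* was called higher *in vivo* at both weeks. It was present in 7.81% of all windows. Of the 9 genes with a window in the RefSeq table, *Il6*, *Il11*, *Lif* and *Osmr* held 1 match each. *Il11* and *Lifr* each had 2 windows, and *Il6ra*, *Il6st* and *Lifr* held no match to any of these letters. The stretches are given with the position of the first matched base relative to the start site. *Il6* had it 249 bases before (chr5:30012864-30012881, plus strand), *Il11* 98 bases before in the inner of its windows (chr7:4778223-4778249, minus strand) and *Lif* 228 bases before (chr11:4257330-4257356, plus strand), all outside annotated exons. The *Osmr* match began at base 4, within an exon (chr15:6874294-6874320, minus strand). These matches describe letters only, and no binding was measured in these samples.
Il6: cTGAGTCActtttaaaga
Il11: ggagggagggTGAGTCAggatgtgtca
Lif: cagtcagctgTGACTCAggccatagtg
Osmr: gccccgtagtTGATTCAtagctggggc

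The transplanted cells differed from the cultured cells in a few of the 10 genes. At 1 week *Lif* and *Osmr* were called higher *in vivo* and none was called lower, where 7.79% of all genes tested were called higher and 5.07% lower. At 2 weeks *Il11* and *Osmr* were called higher and *Cish* lower, against 9.02% and 8.05% of all genes. The median log2 fold change of the 10 genes was 0.14 at 1 week and -0.05 at 2 weeks, beside -0.0058 and -0.0034 for all genes. The deposited scaling weighs on these directions. Without it the median of all genes tested moved by -0.34 in the first week's comparison and -0.33 in the second's. Genes with higher levels *in vivo* made up 60.6% of the first week's calls with the scaling and 36.7% without it, and 52.8% against 32.9% of the second's. *Osmr* at both weeks and *Il11* and *Cish* at 2 weeks stayed past both thresholds in the same direction without the scaling, whereas the *Lif* difference at 1 week was 0.71 and no longer past them, and *Cish* at 1 week became past them.

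**Figure D1:**
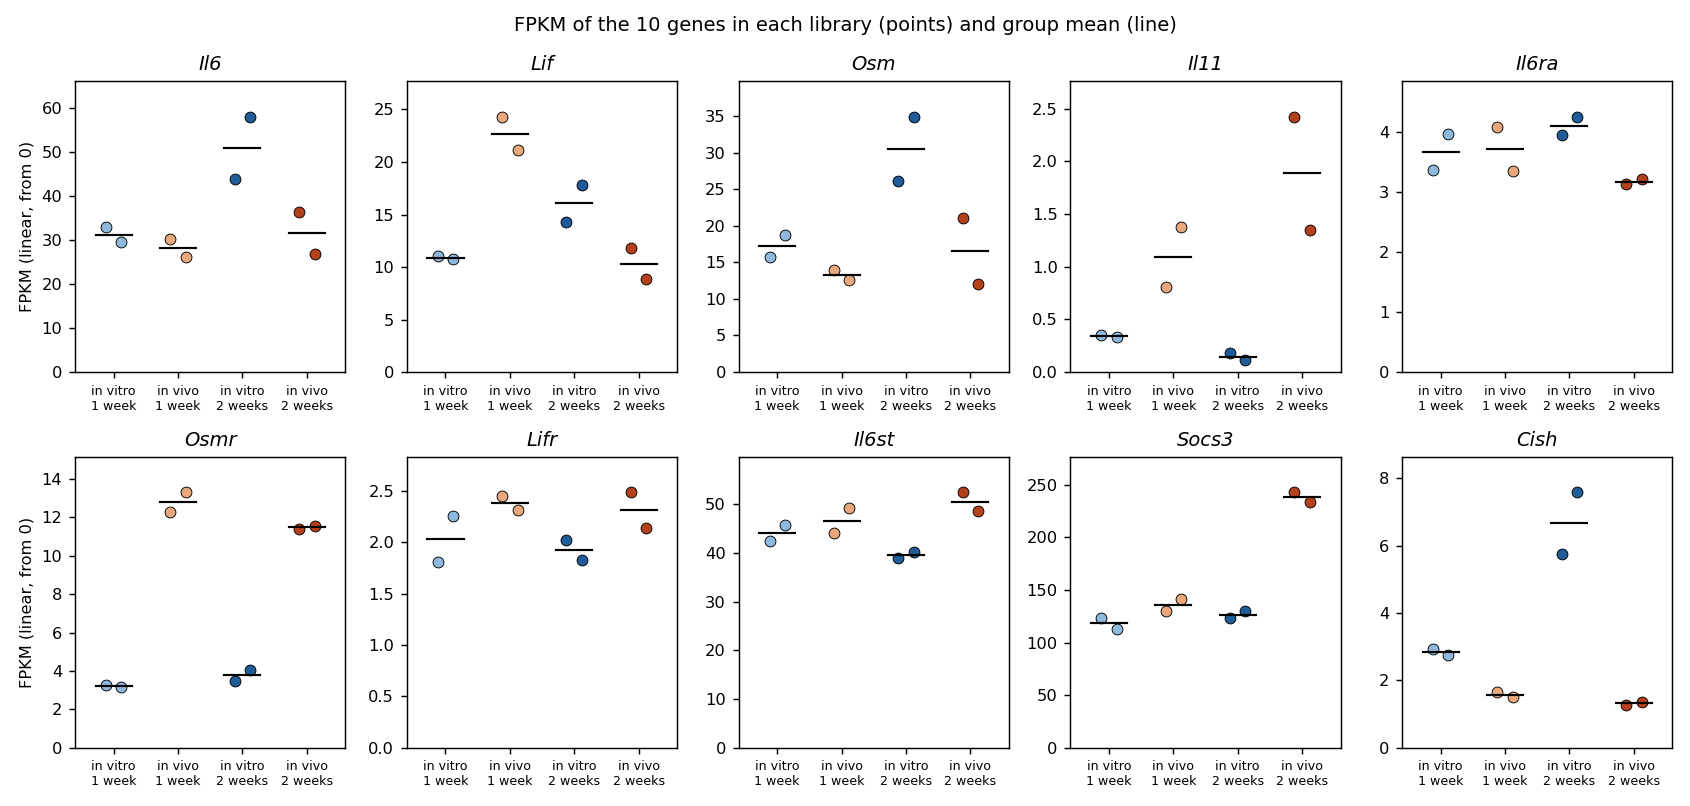
Level of each of the 10 genes in FPKM (y axis, linear from 0, with a separate range in each panel) in the 4 groups (x axis), with each of the 2 libraries as a point and the group mean as a line. Osmr is near 3 to 4 FPKM in the cultured cells and 11 to 13 FPKM in the transplanted cells, Lif is highest in vivo at 1 week, Socs3 is highest in vivo at 2 weeks and Cish is highest in vitro at 2 weeks.

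Among the ligands, *Lif*, a cytokine known to act on cardiomyocytes and stem cells, was the 1 gene called between the conditions at 1 week. Its level was 11.02 and 10.8 FPKM *in vitro* and 24.3 and 21.1 FPKM *in vivo* at 1 week, then 14.3 and 17.9 FPKM *in vitro* and 11.8 and 8.89 FPKM *in vivo* at 2 weeks. The transplanted cells were thus above both cultured libraries at 1 week and below both at 2 weeks. *Lif* was 2.07-fold higher *in vivo* at 1 week (log2 fold change 1.05, SE 0.16, adjusted p = 0.0020 by limma), and the value of -0.64 at 2 weeks (SE 0.16, adjusted p = 0.014) was not past the threshold. The change between the weeks was itself past both thresholds. From 1 to 2 weeks *Lif* fell 2.20-fold *in vivo* (adjusted p = 0.0062), 1 of the genes in the 0.949% called lower in that comparison. In culture its log2 change was 0.55 (adjusted p = 0.045) and was not called. The difference between the 2 weekly effects was -1.69 on the log2 scale (SE 0.22, adjusted p = 0.0080), where 1.15% of genes were called lower. The 1-week fold lay close to the threshold of 2. Leaving out *in vitro* replicate 1, *in vitro* replicate 2 or *in vivo* replicate 1 of the first week ended that call, and the fall *in vivo* and the difference between the weeks were each called in 1 of the 8 fits that left out a library, the fit without *in vivo* replicate 1 of 2 weeks. Over those 8 fits the difference lay between -1.89 and -1.49 on the log2 scale.

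*Il6*, the founding cytokine of the family (chromosome 5, 30013114 to 30019981, plus strand), had its highest level in cultured cells at 2 weeks. It was at 32.8 and 29.5 FPKM *in vitro* and 30.3 and 26.2 FPKM *in vivo* at 1 week, ranges that overlapped. At 2 weeks it was at 43.7 and 58.0 FPKM *in vitro* and 36.2 and 26.9 FPKM *in vivo*, with both cultured libraries above both transplanted ones. None of its comparisons was called. Its log2 fold change *in vivo* was -0.14 (95% interval -0.57 to 0.28) at 1 week and -0.69 (95% interval -1.12 to -0.26, adjusted p = 0.017) at 2 weeks, and without the deposited scaling the latter was -1.02 and past both thresholds. The 3 lower groups, *in vivo* at 2 weeks (31.6 ± 6.61 FPKM), *in vitro* at 1 week (31.2 ± 2.33) and *in vivo* at 1 week (28.2 ± 2.88), overlapped with their neighbours in the order of means. Within each library *Il6* stood at 2.75 to 3.25 times the *Lif* level in 3 of the groups and at 1.24 to 1.25 times *in vivo* at 1 week, the group in which *Lif* was highest.

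*Osm* lies next to *Lif* on chromosome 11 (GRCm38, *Osm* at 4236420 to 4241026 and *Lif* at 4257557 to 4272514, both on the plus strand), 16530 bases apart with no protein-coding gene between them. The neighbours did not follow the same pattern. *Osm* was at 15.7 and 18.7 FPKM *in vitro* and 13.9 and 12.6 FPKM *in vivo* at 1 week, and at 26.1 and 34.9 FPKM *in vitro* and 21.1 and 12.04 FPKM *in vivo* at 2 weeks. Both transplanted libraries lay below both cultured ones at each week. The spread between the transplanted libraries at 2 weeks was wide (mean 16.5, SD 6.38), and no comparison of *Osm* was called. The log2 fold change *in vivo* was -0.37 (95% interval -0.99 to 0.25) at 1 week and -0.92 (95% interval -1.54 to -0.30, adjusted p = 0.024) at 2 weeks. At 2 weeks it passed both thresholds without the deposited scaling (-1.25) and without *in vivo* replicate 1 (-1.32). In the *Osm* to *Lif* ratio within a library, the transplanted cells at 1 week stood at 0.574 to 0.597, below the 1.35 to 1.96 of the other 3 groups.

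Macrophage markers did not all follow *Osm*. With time in culture none of the 14 was called (median log2 change 0.04), while *Osm* had a log2 change of 0.81 (adjusted p = 0.062 by limma). Of the 14 markers, 3 were called higher (*Fcgr1*, *Cx3cr1*, *Ccr2*) and 1 lower (*Lyz2*) *in vivo* at 1 week, and 2 were called higher (*Cx3cr1*, *Ccr2*) and 6 lower (*Cd68*, *Adgre1*, *Lyz2*, *C1qb*, *Tyrobp*, *Mrc1*) at 2 weeks. *Adgre1*, which encodes the macrophage antigen F4/80, was at 107 and 134 FPKM *in vitro* and 100.05 and 88.4 FPKM *in vivo* at 1 week, and at 101 and 106 FPKM *in vitro* and 58.6 and 43.2 FPKM *in vivo* at 2 weeks. *Csf1r* encodes the receptor for the macrophage growth factor CSF-1. At 1 week it was at 57.8 and 75.6 FPKM *in vitro* and 71.6 and 64.4 FPKM *in vivo*, ranges that overlapped. At 2 weeks it was at 90.8 and 99.5 FPKM *in vitro* and 58.8 and 47.9 FPKM *in vivo*. The lower of these *in vivo* values was in the library with the lower *Osm* value. That library was also lower for *Il6*, *Il11*, *Lif*, *Il6st*, *Lifr* and *Socs3*, and higher for *Osmr*, *Il6ra* and *Cish*. The part of macrophage RNA in the *Osm* levels was not tested.

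**Figure D2:**
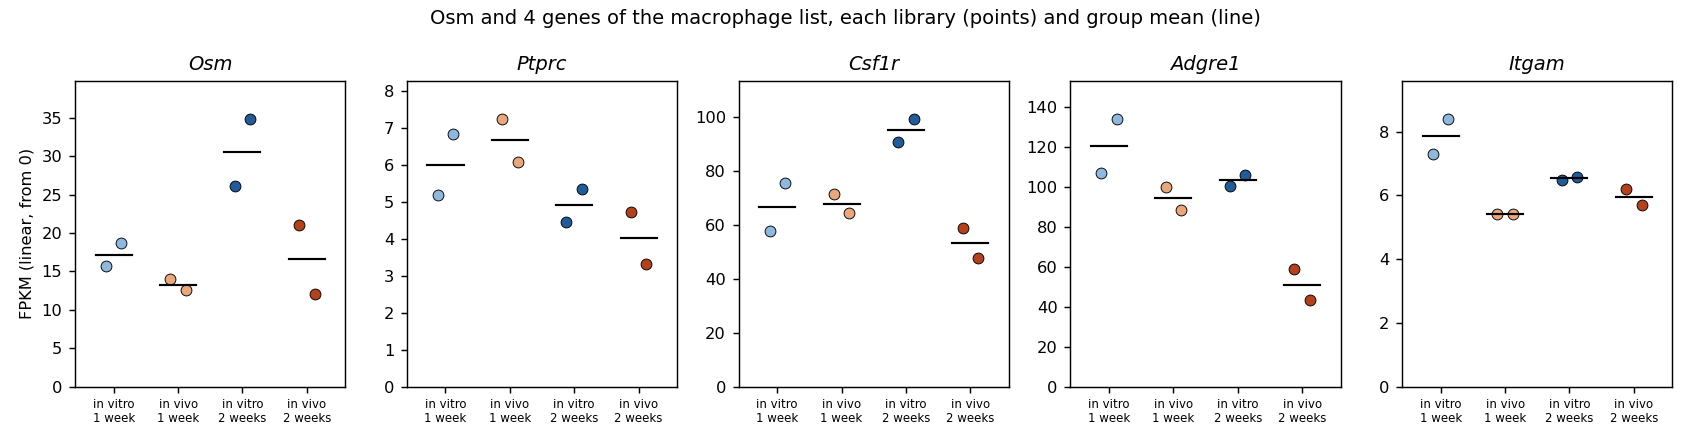
Level of Osm and of 4 genes of the macrophage marker list in FPKM (y axis, linear from 0) in the 4 groups (x axis), with each of the 2 libraries as a point and the group mean as a line. In vivo at 2 weeks the library with the lower Osm level is also the lower one for Ptprc, Csf1r, Adgre1 and Itgam. By group mean Osm and Csf1r are highest in vitro at 2 weeks, whereas Adgre1 and Itgam are highest in vitro at 1 week and Ptprc in vivo at 1 week.

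*Il11* encodes interleukin-11, a cytokine known for its fibrogenic action on fibroblasts (chromosome 7, 4772373 to 4782857, minus strand). By group mean FPKM it was the lowest of the 10 genes in every group but *in vivo* at 2 weeks. There *Cish* was lower in FPKM but had 93 to 96 fragments per library against 30 to 55, with gene lengths of 6419 and 2012 bases. *Il11* was at 0.355 and 0.333 FPKM *in vitro* and 0.807 and 1.37 FPKM *in vivo* at 1 week. At 2 weeks it was at 0.180 and 0.110 FPKM *in vitro* and 2.42 and 1.35 FPKM *in vivo*. These levels rest on 10 to 11, 19 to 36, 3 to 5 and 30 to 55 fragments per library. The transplanted libraries were above the cultured ones at both weeks. At 1 week the log2 fold change of 1.38 (SE 0.38, adjusted p = 0.026 by limma) was not past the threshold, and at 2 weeks *Il11* was called higher *in vivo* (2.98, SE 0.38, adjusted p = 7.6e-04). Because the fitted value depends on the pseudocount at so few fragments, the summed fragments give a second reading. At 2 weeks 85 fragments *in vivo* against 8 *in vitro* made a 13.05-fold ratio (95% interval 6.33 to 31.2), and at 1 week 55 against 21 made a 3.21-fold ratio (95% interval 1.91 to 5.59), intervals that cover counting error only. Between the weeks neither change was called, at -0.87 in culture (adjusted p = 0.14) and 0.73 *in vivo* (adjusted p = 0.25). The difference between the weekly effects was 1.60 (95% interval 0.31 to 2.89, adjusted p = 0.12).

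Among the receptor genes, *Osmr* separated the 2 conditions most clearly. Its product pairs with gp130 as the oncostatin M receptor, which fibroblasts are known to carry. It was at 3.25 and 3.17 FPKM *in vitro* and 12.3 and 13.3 FPKM *in vivo* at 1 week, and at 3.49 and 4.07 FPKM *in vitro* and 11.4 and 11.6 FPKM *in vivo* at 2 weeks. All 4 transplanted libraries were above all 4 cultured ones, and the libraries of a group lay close together. *Osmr* was 3.89-fold higher *in vivo* at 1 week (log2 fold change 1.96, SE 0.095, adjusted p = 1.3e-05 by limma) and 3.0-fold higher at 2 weeks (1.58, SE 0.095, adjusted p = 2.5e-05). These calls held under every alternative that was run, with log2 fold changes of 1.62 to 2.02 at 1 week and 1.26 to 1.69 at 2 weeks. It was the 1 gene of the 10 called at both weeks. The effect at 2 weeks was 0.38 lower on the log2 scale than at 1 week (95% interval of the difference -0.70 to -0.06), which was not past the threshold (adjusted p = 0.13). Neither change with time was called.

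Many fibroblast and endothelial markers were also higher *in vivo*, but with time in culture they did not follow *Osmr*. Of 10 fibroblast markers 7 were called higher *in vivo* at each week and none lower. The 10 summed to 3639 to 3775 FPKM *in vitro* and 13722 to 14759 FPKM *in vivo* at 1 week. At 2 weeks the sums were 2329 to 2346 and 10904 to 12568 FPKM. The 3 not called were *Pdgfra*, *Thy1* and *Tcf21*. At 1 week *Pdgfra* was at 20.2 and 19.8 FPKM *in vitro* and 20.1 and 21.6 FPKM *in vivo*. *Thy1* was at 42.2 and 36.7 FPKM *in vitro* and 24.2 and 22.7 FPKM *in vivo*. *Tcf21* was at 38.3 and 31.6 FPKM *in vitro* and 41.3 and 45.6 FPKM *in vivo*. Of 8 endothelial markers 7 were called higher at 1 week and 4 at 2 weeks, with sums of 21.2 to 22.3 FPKM *in vitro* and 80.3 to 91.2 FPKM *in vivo* at 1 week and of 43.1 to 51.5 and 73.5 to 80.5 FPKM at 2 weeks. From 1 to 2 weeks in culture 5 of the 8 endothelial markers were called higher (median log2 change 1.47). Of the 10 fibroblast markers 2 were called lower (median -0.63). In that comparison 2.76% of all genes were called higher and 1.05% lower, and *Osmr* was not called (0.22). None of the defining markers of either list was at 0 in any group. Their part in the *Osmr* difference was not tested.

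*Lifr*, which encodes the LIF receptor chain, lies on chromosome 15 beside *Osmr* (GRCm38, *Osmr* at 6813577 to 6874969 on the minus strand and *Lifr* at 7090614 to 7197489 on the plus strand), 215644 bases away with no protein-coding gene between. It was at 1.81 and 2.25 FPKM *in vitro* and 2.45 and 2.31 FPKM *in vivo* at 1 week, and at 2.02 and 1.82 FPKM *in vitro* and 2.48 and 2.13 FPKM *in vivo* at 2 weeks. Its levels stood within a narrow band in all 8 libraries, and every neighbouring pair of groups in the order of means overlapped. Within each week, however, both transplanted libraries lay above both cultured ones, and the difference was not called. The log2 fold change *in vivo* was 0.23 (95% interval -0.14 to 0.59) at 1 week and 0.25 (95% interval -0.12 to 0.62) at 2 weeks. These intervals leave out a 2-fold change in either direction, although the sign at each week was negative without the deposited scaling. Within a library *Osmr* was 1.41 to 2.23 times as abundant as *Lifr* in culture and 4.60 to 5.76 times as abundant after transplantation.

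*Il6ra*, the chain that binds IL-6 itself (chromosome 3, 89864059 to 89913196, minus strand), was at 3.37 and 3.97 FPKM *in vitro* and 4.08 and 3.34 FPKM *in vivo* at 1 week, and at 3.94 and 4.25 FPKM *in vitro* and 3.13 and 3.21 FPKM *in vivo* at 2 weeks. The groups overlapped at 1 week, and at 2 weeks both transplanted libraries were lower. No comparison was called. The log2 fold change was 0.01 (95% interval -0.30 to 0.33) at 1 week, with a sign that turned under other scalings, and -0.36 (95% interval -0.68 to -0.04, adjusted p = 0.061) at 2 weeks.

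*Il6st*, the shared gp130 chain (chromosome 13, 112464070 to 112510086, plus strand), was the most abundant of the receptor genes in every library. It was at 42.5 and 45.8 FPKM *in vitro* and 44.0 and 49.2 FPKM *in vivo* at 1 week, and at 38.9 and 40.2 FPKM *in vitro* and 52.4 and 48.5 FPKM *in vivo* at 2 weeks. At 2 weeks the transplanted libraries were above the cultured ones by 1.27-fold (log2 fold change 0.35, SE 0.078, adjusted p = 0.0089 by limma), a difference past the p threshold but short of the fold threshold. Without the deposited scaling this log2 fold change was 0.018. It also missed the p threshold with no filter, no trend, the replicate block, quantile scaling or only the groups compared (adjusted p = 0.011 to 0.028 by limma). At 1 week the log2 fold change was 0.08 (95% interval -0.11 to 0.26), and negative under quantile scaling and without the deposited scaling. The excess of *Il6st* over *Osmr* within a library was 13.1 to 14.4 times *in vitro* and 3.59 to 3.70 times *in vivo* at 1 week, and 9.89 to 11.1 and 4.19 to 4.59 times at 2 weeks. Against *Lifr* it was 18.0 to 23.5 times in all 8 libraries.

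**Figure D3:**
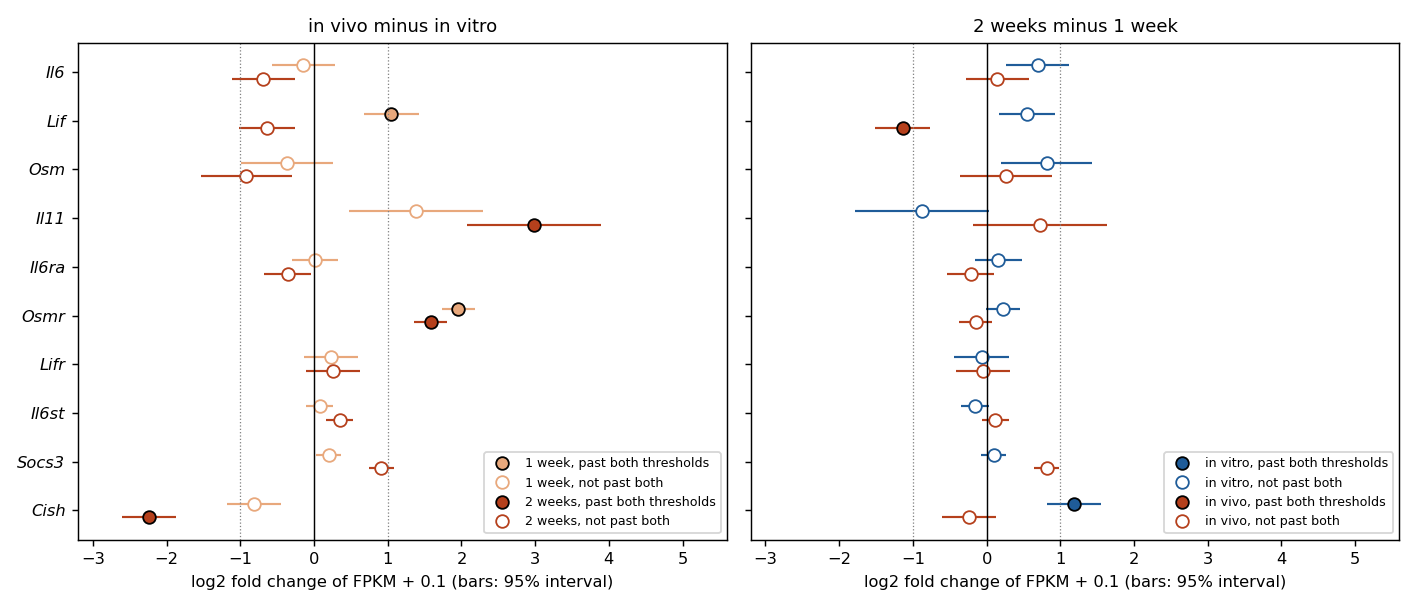
Log2 fold change of FPKM + 0.1 (x axis) of each of the 10 genes (y axis) from limma with 95% intervals as bars, in vivo minus in vitro at 1 week and 2 weeks (left) and 2 weeks minus 1 week in vitro and in vivo (right). Filled points are past both thresholds and dotted lines mark a 2-fold change. Osmr is to the right of the dotted line at both weeks, Lif is at 1.05 at 1 week and -0.64 at 2 weeks, and Cish is at -2.24 at 2 weeks.

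Of the 2 inhibitor genes, *Socs3*, the feedback inhibitor of gp130 signalling (chromosome 11, 117966079 to 117970047, minus strand), was the more abundant. In FPKM it was the highest of the 10 genes in every library. It was at 124 and 113 FPKM *in vitro* and 130 and 141 FPKM *in vivo* at 1 week, and at 123 and 130 FPKM *in vitro* and 243 and 234 FPKM *in vivo* at 2 weeks. The transplanted cells at 2 weeks stood apart, and the other 3 groups lay between 113 and 141 FPKM. At 2 weeks the level *in vivo* was 1.88-fold that of culture (log2 fold change 0.91, SE 0.072, adjusted p = 8.0e-05 by limma), and it was 1.76-fold that of 1 week *in vivo* (0.81, SE 0.072, adjusted p = 0.0014). The difference between the weekly effects was 0.72 (SE 0.10, adjusted p = 0.0093). These 3 values passed the p threshold and missed the fold threshold, so *Socs3* was not called. At 1 week its log2 fold change was 0.20 (95% interval 0.03 to 0.37, adjusted p = 0.066), and it was negative under quantile scaling and without the deposited scaling.

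*Cish* (chromosome 9, 107296026 to 107302784, plus strand) was highest in culture at 2 weeks. It was at 2.93 and 2.74 FPKM *in vitro* and 1.65 and 1.49 FPKM *in vivo* at 1 week, and at 5.76 and 7.58 FPKM *in vitro* and 1.28 and 1.35 FPKM *in vivo* at 2 weeks. All 4 transplanted libraries were below all 4 cultured ones, and no 2 groups overlapped. At 2 weeks *Cish* was 4.73-fold lower *in vivo* (log2 fold change -2.24, SE 0.15, adjusted p = 4.4e-05 by limma), a call that held under every alternative, between -2.56 and -1.72. At 1 week its log2 fold change of -0.81 (SE 0.15, adjusted p = 0.0055) passed the p threshold and not the fold threshold, and without the deposited scaling it was -1.14 and past both. In culture *Cish* rose 2.28-fold from 1 to 2 weeks (log2 fold change 1.19, SE 0.15, adjusted p = 0.0030), where 2.76% of all genes were called higher and 1.05% lower. This call was lost when *in vitro* replicate 1 or 2 of 1 week or replicate 2 of 2 weeks was left out. *In vivo* its change with time was -0.24 (95% interval -0.60 to 0.13), and 1.23% of all genes were called higher in that comparison. The difference between the weekly effects was -1.43 (SE 0.22, adjusted p = 0.012), just outside the threshold, and 0.573% of all genes were called higher there. Within a library the FPKM of *Socs3* exceeded that of *Cish* by 41.2 to 42.1 times *in vitro* and 79.0 to 94.3 times *in vivo* at 1 week. At 2 weeks these ratios were 17.1 to 21.4 and 173 to 189. They depend on the gene lengths used, 2891 and 6419 bases. *In vitro* at 1 week *Socs3* had 4884 to 5502 fragments per library and *Cish* 263 to 290.

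Cardiomyocyte markers were high where *Cish* was high. The 10 markers summed to 111 to 123 FPKM *in vitro* and 10.4 to 12.9 FPKM *in vivo* at 1 week, and to 559 to 635 and 17.4 to 25.1 FPKM at 2 weeks. Of the 8 tested, 1 was called higher *in vivo* at each week, while 6 were called lower in the first and 7 in the second, and no defining marker was at 0 in both libraries of any group. Their part in the *Cish* levels was not tested. *Epor*, the erythropoietin receptor gene, whose signal runs through STAT5, was also highest in culture at 2 weeks, with the cultured cells of 1 week next. It was at 1.93 and 2.29 FPKM *in vitro* and 0.687 and 1.08 FPKM *in vivo* at 1 week, and at 7.89 and 7.58 FPKM *in vitro* and 1.07 and 0.865 FPKM *in vivo* at 2 weeks. It was called lower *in vivo* at 1 week (log2 fold change -1.19, adjusted p = 0.0049) and at 2 weeks (-2.88, adjusted p = 6.9e-05), and higher at 2 weeks than at 1 week in culture (1.83, adjusted p = 0.0022). *Ghr*, the growth hormone receptor gene, had group means of 18.08 FPKM *in vitro* and 11.98 FPKM *in vivo* at 1 week. At 2 weeks its means were 14.49 and 13.85 FPKM. Both transplanted libraries lay below both cultured ones at each week, as for *Cish*. With time in culture, however, *Ghr* fell where *Cish* and *Epor* rose. *Ghr* was not called in these comparisons.

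The remaining genes of the pathway were followed in 6 lists. Their counts stand beside 7.79% of all genes tested called higher *in vivo* and 5.07% lower at 1 week. At 2 weeks these shares were 9.02% and 8.05%. Of 8 other ligand genes 5 could be tested, and 1 was called higher and 1 lower *in vivo* at each week. *Clcf1*, a ligand of the ciliary neurotrophic factor receptor, at 2.93 to 5.22 FPKM, was not called in any comparison. *Ebi3*, a subunit of IL-27 and IL-35, was the lower gene, at -1.76 (adjusted p = 0.0028) and -2.45 (adjusted p = 4.9e-04). *Cntf*, *Ctf2* and *Il31* did not pass the filter.

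Among 5 other receptor genes, of which 4 rows could be tested, *Cntfr*, the ciliary neurotrophic factor receptor chain, was called higher *in vivo* at 1 week (2.03, adjusted p = 6.8e-04) and 2 weeks (1.17, adjusted p = 0.0063). *Il11ra1*, the receptor chain for interleukin-11, was at 18.9 and 17.3 FPKM *in vitro* and 24.3 and 25.7 FPKM *in vivo* at 1 week, and at 31.2 and 32.1 FPKM *in vitro* and 44.8 and 47.1 FPKM *in vivo* at 2 weeks. Its differences were past the p threshold and short of the fold threshold in both conditions and at both weeks, with log2 values of 0.47 and 0.54 *in vivo* against *in vitro* and of 0.81 and 0.88 between the weeks in culture and *in vivo*. *Il11ra1* thus stood far above its ligand *Il11* on the FPKM scale in every library.

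Of 16 genes for Janus kinases, STAT proteins and their partners, 15 were tested. At 1 week 3 were called higher *in vivo*, among them *Stat2* (2.41) and *Jak3* (2.19), and none lower, and at 2 weeks *Jak3* (2.03) and *Stat2* (1.91) were called higher. *Stat2* is itself a known interferon-induced gene, and *Jak3* serves receptors of the common γ chain. The transducer of the IL-6 family, *Stat3*, was at 14.6 and 15.4 FPKM *in vitro* and 29.4 and 30.4 FPKM *in vivo* at 1 week, and at 24.0 and 27.3 FPKM *in vitro* and 28.6 and 27.5 FPKM *in vivo* at 2 weeks. Its log2 fold change was 0.99 (adjusted p = 9.4e-05) at 1 week, just short of the fold threshold, and 0.13 (adjusted p = 0.20) at 2 weeks. The targets of baricitinib had log2 fold changes of 0.16 and -0.09 for *Jak1* and of 0.61 and 0.27 for *Jak2* at 1 and 2 weeks, none of them called. The median of the list was 0.16 at 1 week and 0.13 at 2 weeks.

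Of 13 other feedback inhibitor genes, all tested, *Socs5* was called lower *in vivo* at 1 week (-1.04, adjusted p = 4.0e-04) and *Socs1* higher at 2 weeks (1.11, adjusted p = 0.0038). *Socs1*, an inhibitor of interferon and other JAK signalling, was at 3.83 and 3.97 FPKM *in vitro* and 10.8 and 6.76 FPKM *in vivo* at 2 weeks. *Socs2*, which like *Cish* is a known STAT5 target, had log2 fold changes of 0.43 (adjusted p = 0.0045) and 0.29 (adjusted p = 0.021), opposite in sign to those of *Cish* and not called. The list's median was -0.22 at 1 week and -0.12 at 2 weeks.

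Of 30 genes listed as known targets of STAT3 or STAT5, 28 were tested. At 1 week 10 were called higher *in vivo* and 1 lower, with a median log2 fold change of 0.73, and at 2 weeks 9 were called higher and 1 lower, with a median of 0.05. The genes with the highest changes encode acute-phase proteins. *Lrg1* was listed at 0 in both cultured libraries at 1 week and had 1 fragment in each at 2 weeks, and it was at 7.95 and 8.12 FPKM *in vivo* at 1 week and 16.5 and 17.9 FPKM at 2 weeks, at least 57.2-fold higher at 1 week when 3 fragments per cultured library are taken as the floor. *Hp*, the haptoglobin gene, was at 1.66 and 2.33 FPKM *in vitro* and 54.1 and 88.9 FPKM *in vivo* at 1 week (5.07, adjusted p = 2.8e-05), with 4.25 at 2 weeks (adjusted p = 4.7e-05). *Serpina3n*, a protease inhibitor of the acute phase, was at 119 to 123 FPKM *in vitro* and 1232 to 1419 FPKM *in vivo* at 1 week (3.45, adjusted p = 2.0e-06), with 3.82 at 2 weeks (adjusted p = 1.1e-06). *Lcn2*, the lipocalin gene, was at 2 and 0 fragments *in vitro* and 1.04 and 2.46 FPKM *in vivo* at 1 week, at least 23.2-fold higher on the same floor. *Timp1*, an inhibitor of matrix metalloproteinases, had 1.42 and 2.83. *Saa3*, an acute-phase amyloid, was called at 2 weeks (4.11, adjusted p = 3.0e-04), where its transplanted libraries lay far apart at 65.9 and 26.4 FPKM.

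The rest of that list did not move as a block. *Ccnd1*, a cyclin of the G1 phase, was called lower *in vivo* at both weeks (-1.41 and -1.55). *Bcl3* had log2 fold changes of 0.71 at 1 week and -0.80 at 2 weeks, neither called, and its difference between the weeks was called (-1.51, adjusted p = 0.0034), in the same direction as that of *Lif*. *Myc* (0.86 and 0.54) and *Junb* (0.61 and 0.51) were past the p threshold alone, and *Pim1* (0.46 and -0.35) was past neither. *Fos*, which tissue digestion is known to induce, was at 270 and 234 FPKM *in vitro* and 940 and 1052 FPKM *in vivo* at 1 week, and at 187 and 167 FPKM *in vitro* and 1593 and 1337 FPKM *in vivo* at 2 weeks (1.98 and 3.04). It was highest in the group in which *Socs3* was highest, and its part in the *Socs3* level was not tested.

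Of 22 genes for other receptors coupled to Janus kinases, 20 were tested. At 1 week 4 were called higher *in vivo*, namely *Lepr*, the leptin receptor (2.13), *Il13ra1* (2.04), *Il4ra* (1.29) and *Csf2rb2* (1.17), and *Epor* was lower. At 2 weeks *Csf2rb2* (1.65) and *Il13ra1* (1.43) were higher, and *Epor* and *Il7r* (-1.54) were lower. *Il13ra1*, part of the receptor for IL-4 and IL-13, was at 8.01 and 8.96 FPKM *in vitro* and 33.9 and 36.7 FPKM *in vivo* at 1 week. *Il4ra* resembled *Lif* in that its difference between the weeks was called (-1.19, adjusted p = 0.0097).

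**Figure D4:**
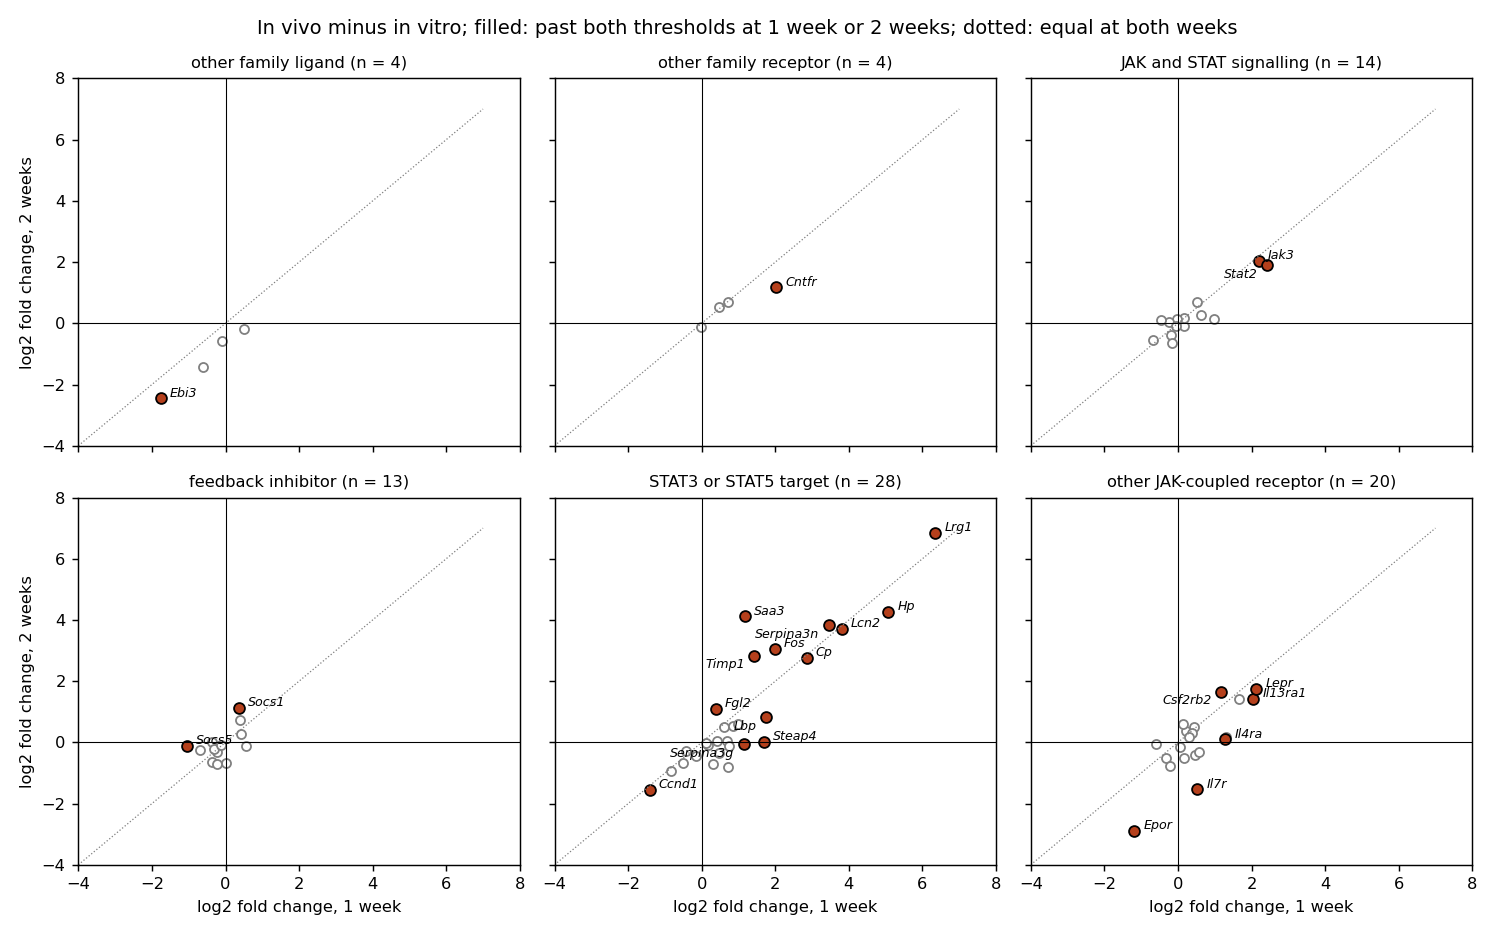
Log2 fold change in vivo minus in vitro at 1 week (x axis) and 2 weeks (y axis) of tested genes of the 6 pathway lists, 1 panel per list with the number plotted. Filled, named points passed both thresholds in at least 1 week and the dotted line marks equal values. Saa3 lies far above the line, Epor is the lowest point, and Lrg1, whose cultured libraries hold 0 or 1 fragment, is placed by the pseudocount.

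The genes most alike in level were sought for 3 of the 10 genes by the correlation of log2 levels over the 8 libraries, which share the 4 groups, so a gene that differs between conditions is alike to many others. For *Osmr* they were *Emilin1* (r = 0.997), *Eng* (0.997) and *Srpx2* (0.996), and 784 of 15707 genes had r over 0.95. For *Socs3* they included *Cilp2* (0.987) and *Alox15* (0.985), with 107 genes over 0.95. *Cilp2* was at 0.388 to 1.42 FPKM in the 3 lower groups and at 18.3 FPKM in both libraries *in vivo* at 2 weeks. For *Il6* they were *Med29* (0.985), *D17Wsu92e* (0.972) and *Tmem234* (0.967), with 11 genes over 0.95. No p is given for these values, which describe 8 libraries only.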

How the data were processed

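The libraries were made with a SMARTer mRNA kit and sequenced by the authors' provider. The submitters' processing notes name CASAVA, HISAT2 v2.0.5 and mm10, and the counting tool is not given in the sources used here. The values used are the deposited FPKM of 54532 genes, which the authors computed after a scaling between libraries. Multiplied by gene length they gave whole fragments (tolerance 0.05), from which depth was read. All 8 columns matched a sample. limma v3.58.1 in R v4.3.3 was run with a trend on log2(FPKM + 0.1) for the 15708 genes at or above 0.5 FPKM in at least 2 libraries, with the 4 groups in 1 fit and 5 comparisons, and was tested on simulated data. Genes were called at a Benjamini-Hochberg adjusted p under 0.01 with a fold over 2. The study's methods give the same cutoffs for upregulated genes, without saying whether p was adjusted. Sequences came from the RefSeq promoter table (GRCm38.p6), which matched 9 of the 10 genes, and positions from the deposited table. The members and lists were chosen with earlier results of these data known. All 10 members are named. From each list up to 4 called genes with the highest absolute fold change at each week were named, and from the correlations the 3 most alike genes for *Il6*, *Osmr* and *Socs3*. *Clcf1*, *Il11ra1*, *Stat3*, *Jak1*, *Jak2*, *Socs2*, *Timp1*, *Fos*, *Ccnd1*, *Bcl3*, *Myc*, *Junb*, *Pim1*, *Ghr* and *S100a9* were chosen after their values were seen. Alternatives covered the pseudocount, filter, scaling, trend, thresholds, tool, replicate block and each library left out. Some genes of the lists and correlations are not reported here.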

Additional observations from a re-analysis of the deposited data

Results flagged for a closer look

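The effect of the condition on *Lif* differed between the weeks. Its log2 fold change *in vivo* against *in vitro* was 1.05 at 1 week and -0.64 at 2 weeks, with both transplanted libraries above both cultured libraries at 1 week and below both at 2 weeks. The difference between the weekly effects was -1.69 (SE 0.22, limma, adjusted p = 0.0080). The call held in 1 of the 8 fits that left out a library, the fit without *in vivo* replicate 1 of 2 weeks, and the log2 difference lay between -1.89 and -1.49 over them. With a replicate block its adjusted p was 0.019. No other of the 10 genes passed both thresholds in that test.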

How the results depend on the processing

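*Osmr* at both weeks and *Il11* and *Cish* at 2 weeks were called under every alternative that could be run, *Il11* having been removed by the filter of 1 FPKM in 4 libraries. The number of the 10 genes called moved in the other cases. At 1 week it was 1 with a pseudocount of 1 and 4 at an adjusted p under 0.05 with no minimum fold, against 2, and 1 to 2 when a library was left out. Without the deposited scaling it was also 2, with *Cish* (-1.14) in place of *Lif* (0.71). At 2 weeks it was 5 without the deposited scaling (*Il6* and *Osm* being added), 8 at p under 0.05, 2 with the filter of 1 FPKM in 4 libraries and 3 to 4 with a library left out (*Osm* being added without *in vivo* replicate 1), against 3. For time in culture it was 0 with a pseudocount of 1, 3 at p under 0.05 and 0 to 1 with a library left out, against 1. For time *in vivo*, against 1, it was 0 with no filter, with only the groups compared, with no trend and with the replicate block, 2 at p under 0.05 and 0 to 1 with a library left out. For the difference between the weeks, against 1, it was 0 with no filter, with no trend and with the replicate block, 2 with the filter of 1 FPKM in 4 libraries and with limma voom on fragments, 3 at p under 0.05 and 0 to 1 with a library left out. The cause was not tested.

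Values that turned sign were all small and uncalled. Without the deposited scaling the 1-week log2 fold changes were -0.32 (*Il6ra*), -0.27 (*Il6st*), -0.10 (*Lifr*) and -0.15 (*Socs3*), and that of *Lifr* at 2 weeks was -0.066. With quantile normalization those at 1 week were -0.0095 (*Il6ra*), -0.047 (*Il6st*) and -0.093 (*Socs3*), and the change of *Socs3* in culture was -0.14. With a library left out, the ranges that crossed 0 were -0.13 to 0.16 (*Il6ra*) and -0.0044 to 0.16 (*Il6st*) at 1 week, -0.22 to 0.081 for *Lifr* with time in culture, -0.067 to 0.36 (*Il6*), -0.14 to 0.66 (*Osm*) and -0.15 to 0.060 (*Lifr*) with time *in vivo*, and -0.13 to 0.17 for *Lifr* in the difference between the weeks.

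Libraries with the same replicate number did not deviate together (correlations of -0.048 to -0.011 over 15708 genes), so the numbers were not taken as pairs. With the replicate block the genes called went from 2020 to 1851 at 1 week, from 2682 to 2512 at 2 weeks, from 599 to 448 in culture, from 342 to 236 *in vivo* and from 271 to 27 for the difference between the weeks. With 2 libraries per group few degrees of freedom remain, and *Il11* rests on 3 to 55 fragments per library.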
